A study of Rattus norvegicus with 4 samples.

Results

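The genes described here encode short-lived transcription factors and immediate early proteins, 10 genes given by symbol, with no threshold on measured values but with earlier results of these data known: the JUN genes Jun, Junb and Jund, the FOS genes Fos, Fosl1 and Fosl2, the early response genes Egr1, Ier2 and Ier3, and Myc. All 10 were among the 31038 gene rows of the deposited ribosome footprint counts, and all 10 had enough counts to be tested. Cultured rat myocardial cells were depleted by siRNA of eIF3m, a subunit of the initiation factor that brings small ribosomal subunits to messenger RNA (si3m, 2 libraries), or received a control siRNA (siNT, 2 libraries). Both groups were kept in medium with fetal bovine serum, and ribosomes were stalled with cycloheximide before lysis. The cells are labelled NRVM, which usually stands for neonatal rat ventricular myocytes, but the labels' protocols name embryonic myocardium as their origin.

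JUN proteins pair with each other or with FOS proteins to form AP-1, a transcription factor that growth factors, serum and stress switch on within minutes. EGR1, IER2 and IER3 are products of genes induced in the same early wave, and MYC pairs with MAX to drive growth and ribosome production. Their messenger RNAs and proteins are short-lived, so their levels depend on continued synthesis. In human cells JUN messenger RNA is a known example of a transcript that eIF3 itself binds, with the subunit eIF3d recognising its cap. In cardiac cells these genes are known as early markers of hypertrophic and ischemic stress.

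Library totals were 8687598 and 6726969 counts in si3m and 3924434 and 3835750 in siNT, and even numbers made up 94.9% to 97.3% of the nonzero counts, as would arise if fragments were counted as 2 reads each. The counting unit is not given in the labels, so fragments here are deposited counts divided by 2, and the shares' intervals below rest on that assumption. The targeted gene Eif3m stood at 138 and 191 CPM (counts relative to the TMM-scaled library size) in si3m, against 532 and 451 CPM in siNT (log2 fold change -1.59, SE 0.11). This fall passed edgeR's quasi-likelihood test (adjusted p = 3.41e-08), but not its robust form (adjusted p = 0.0522). Defining markers of cardiomyocytes were scarce: 6 to 10 of 13 had at most 6 counts in a library, and Tnni3 and Nppa were at 0 in every library. The 13 markers summed to 49.7 and 58.6 CPM of the library total in si3m and 76.4 and 70.9 in siNT, with 1 of 3 tested markers called higher and 2 lower. The 8 fibroblast markers summed to 11304 and 11014 in si3m and 6779 and 6668 in siNT. All 5 tested fibroblast markers passed as higher, while Tcf21 was at 0 throughout and Dcn and Lum were at 0 in siNT. Smooth muscle markers summed to 3538 and 3543 in si3m and 3217 and 3193 in siNT. Endothelial markers summed to at most 5.74, with Cdh5 at 0 throughout, and leukocyte markers to at most 4.08. The part of these differences in the results below was not tested. In bulk samples fewer cells of a type and less RNA per cell cannot be told apart.

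Of the 10 genes, 3 rose and 1 fell in si3m. Ier3, Jund and Junb were higher, Fosl2 was lower, and Jun, Fos, Fosl1, Egr1, Ier2 and Myc did not pass the threshold, an adjusted p of 0.05 in edgeR's quasi-likelihood fit over 12672 genes. Over all tested genes, 27.8% were called, 14.0% as higher and 13.9% as lower, or 1771 and 1757 genes. With total count scaling that split was 1428 higher and 2217 lower. The median log2 fold change was 0.19 over the 10 genes and 0.02 over all tested genes. The groups were apart, with no overlap of library values, for 5 of the 10 genes (the called 4 and Fosl1) and for 63.9% of all tested genes. The number called depended on single libraries: 5 were called without siNT replicate 1, 3 without siNT replicate 2, 2 without si3m replicate 1 and 2 without si3m replicate 2.

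**Figure D1:**
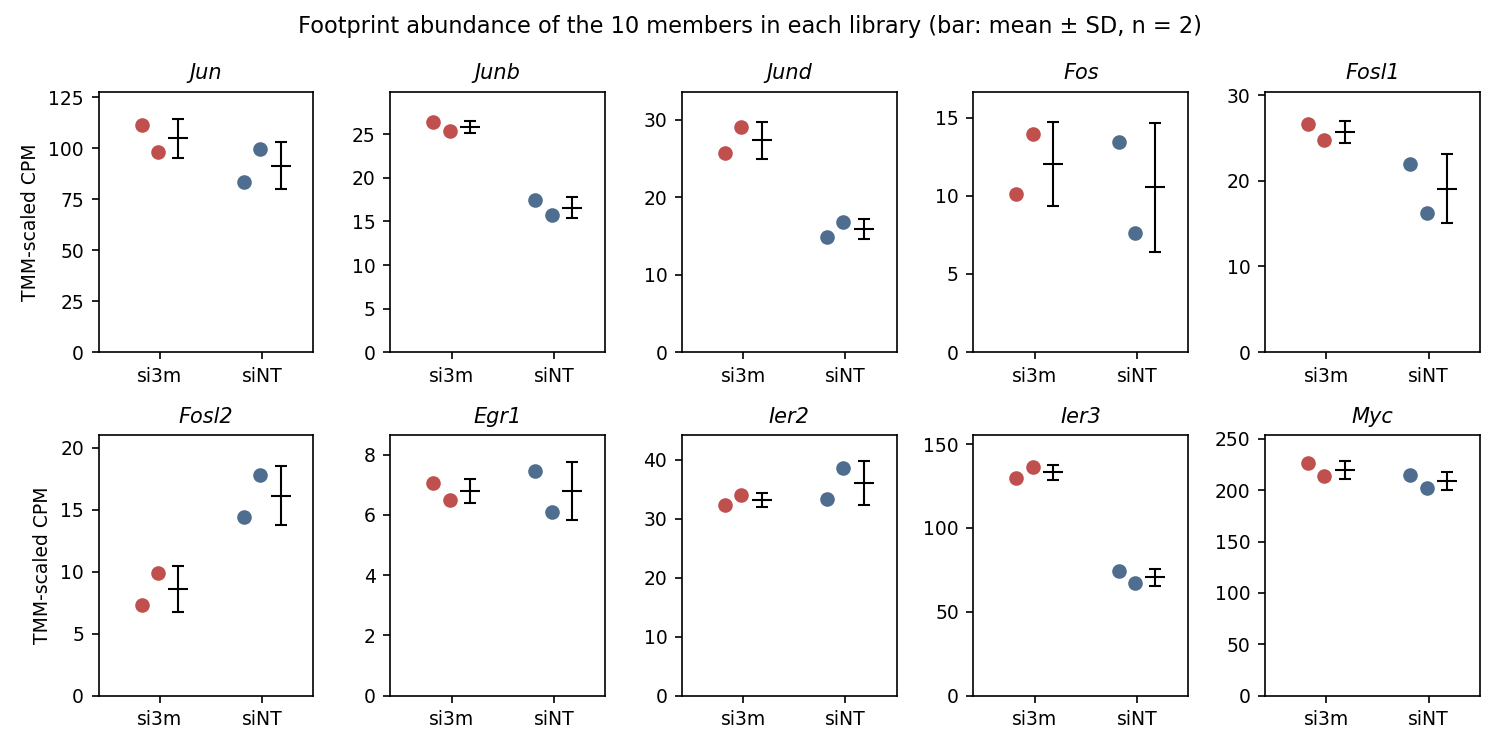
Footprint abundance in TMM-scaled CPM (vertical axes, from 0, a separate scale for each gene) in the si3m and siNT libraries, with the mean and SD beside the 2 points of each group. The groups are apart for Ier3, Jund, Junb, Fosl2 and Fosl1, and overlap for the other genes.

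Among the JUN genes, the footprints of Jun, the main activating partner in AP-1, did not differ beyond the spread between libraries. Jun had 111 and 98.1 CPM in si3m, against 83.1 and 99.6 CPM in siNT. The second siNT library lay between the si3m libraries, so the groups overlapped. The log2 fold change was 0.20 (SE 0.11) and did not pass (edgeR adjusted p = 0.202), with a 95% interval from -0.04 to 0.44, or 0.975-fold to 1.35-fold. Without siNT replicate 2 Jun passed as higher (log2 0.34, adjusted p = 0.0283), and without siNT replicate 1 it stood at 0.08.

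Junb and Jund, whose products pair with the same partners as JUN and are weaker activators in many settings, both rose. Junb had 26.4 and 25.4 CPM in si3m, against 17.4 and 15.8 CPM in siNT, a 1.56-fold rise (log2 0.64, SE 0.22, edgeR adjusted p = 0.0367). Both si3m libraries lay above both siNT libraries. The call rested on few fragments, 112 and 82 in si3m and 35 and 31 in siNT. It did not hold without si3m replicate 1 (adjusted p = 0.173), without si3m replicate 2 (0.117), without siNT replicate 2 (0.0807), with DESeq2 (0.0607) or with total count scaling (0.0643).

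Jund had 25.7 and 29.1 CPM in si3m, against 14.9 and 16.8 CPM in siNT. The groups were apart, and the rise was 1.72-fold (log2 0.79, SE 0.22, 95% interval 0.32 to 1.25, edgeR adjusted p = 0.0137). Of the 14 alternative settings, 13 kept this call, and it was lost without si3m replicate 2 (log2 0.71, adjusted p = 0.105).

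Shares within the JUN family restate the counts of these 3 genes. Jun made up 68.2% and 64.3% of the fragments of the 3 genes in the si3m libraries, against 72.0% and 75.4% in siNT. Jund made up 15.7% and 19.1% in si3m, against 12.9% and 12.7% in siNT. Junb made up 16.1% and 16.6% in si3m, against 15.1% and 11.9% in siNT. For each of the 3 genes the groups were apart, but the 95% Wilson intervals of single libraries overlapped between the groups for every pair of libraries other than Jun in si3m replicate 2 (60.0% to 68.4%) and siNT replicate 2 (69.8% to 80.2%). With 2 libraries against 2, an exact permutation test cannot go below p = 0.333 (two-sided). These intervals cover counting error only.

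The FOS genes went different ways. Fosl2 encodes FRA2, a FOS protein without the strong activation domain of FOS. It had 7.30 and 9.90 CPM in si3m, against 14.4 and 17.8 CPM in siNT. Each si3m value was under each siNT value, and the level was 1.88-fold higher in siNT (log2 fold change of si3m over siNT -0.91, SE 0.29, 95% interval -1.52 to -0.30, edgeR adjusted p = 0.0264). The fragments behind it were 31 and 32 in si3m, against 29 and 35 in siNT, libraries with fewer total counts. The call was lost without siNT replicate 2 (adjusted p = 0.0843) and without si3m replicate 1 (0.228).

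Fosl1, which encodes the related FRA1, had 26.6 and 24.7 CPM in si3m, against 21.9 and 16.3 CPM in siNT. The groups were apart, but the difference did not pass (log2 0.43, SE 0.22, 95% interval -0.04 to 0.90, edgeR adjusted p = 0.170). Without siNT replicate 1 it passed as higher (log2 0.67, adjusted p = 0.0425).

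Fos, the archetypal immediate early gene, had 10.1 and 13.9 CPM in si3m, against 13.4 and 7.62 CPM in siNT. The siNT libraries held the second highest and the lowest of the 4 values, so no direction could be given. The log2 fold change of 0.18 (SE 0.32) did not pass (edgeR adjusted p = 0.726) and had a 95% interval from -0.50 to 0.87, which spans 0.705-fold to 1.82-fold. It turned to -0.17 without siNT replicate 2 and to -0.05 without si3m replicate 2.

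Shares within the FOS family likewise restate the counts of its 3 genes, and are not independent of each other. Fosl2 made up 16.6% and 20.4% of the fragments of the 3 genes in si3m, against 29.0% and 42.7% in siNT. Fosl1 made up 60.4% and 51.0% in si3m, against 44.0% and 39.0% in siNT. Fos made up 23.0% and 28.7% in si3m, against 27.0% and 18.3% in siNT. The groups were apart for Fosl2 and Fosl1 and overlapped for Fos, on family totals of 187 and 157 fragments in si3m and 100 and 82 in siNT. The number of libraries again allows no exact p below 0.333.

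**Figure D2:**
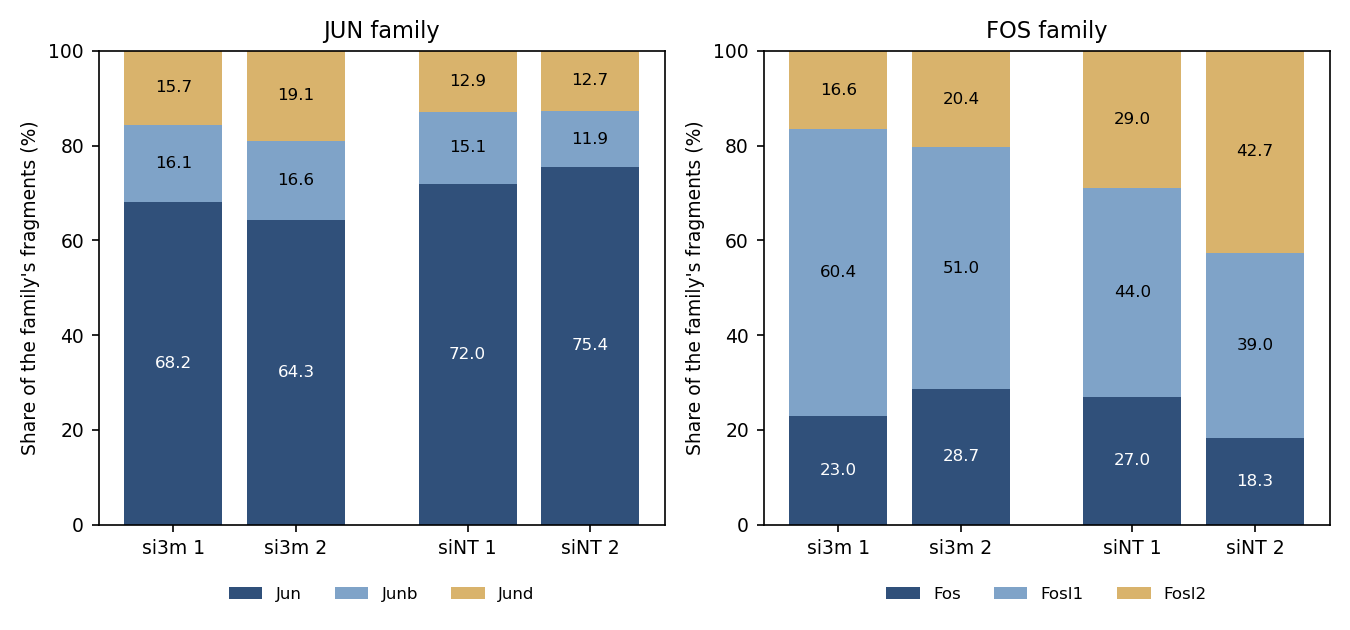
Share of the fragments of each family (vertical axis, percent) that fell on each of its 3 genes, by library, with si3m libraries on the left of each panel. The Jund part is larger in the si3m libraries (15.7% and 19.1%) than in the siNT libraries (12.9% and 12.7%), and the Fosl2 part is smaller (16.6% and 20.4% against 29.0% and 42.7%).

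Ier3 showed the clearest rise of the 10 genes. It encodes a small protein that modulates ERK and NF-kB signalling and cell survival. It had 130 and 136 CPM in si3m, against 74.2 and 67.1 CPM in siNT, and the groups were far apart compared with their spread (133 ± 4.32 in si3m and 70.6 ± 5.02 in siNT, SD, n = 2 each). The rise was 1.88-fold (log2 0.91, SE 0.099, 95% interval 0.70 to 1.12, edgeR adjusted p = 4.48e-06). All 14 alternative settings kept the call, with log2 values from 0.83 to 0.99. Among all tested genes its log2 fold change stood at percentile 91.7.

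Ier2, a nuclear protein of the early serum response, had 32.3 and 34.0 CPM in si3m, against 33.4 and 38.6 CPM in siNT. The groups overlapped and the difference did not pass (log2 -0.12, SE 0.17, 95% interval -0.48 to 0.24, edgeR adjusted p = 0.652). Egr1, a zinc finger factor that serum response factor induces, had 7.07 and 6.50 CPM in si3m, against 7.47 and 6.10 CPM in siNT. Its mean was 6.78 ± 0.402 CPM in si3m and 6.78 ± 0.969 CPM in siNT (SD, n = 2 each). With 60 and 42 counts in si3m and 30 and 24 in siNT, the 95% interval of its log2 fold change ran from -0.78 to 0.78, or 0.584-fold to 1.72-fold.

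Myc had the most counts of the 10 genes, and its interval was the narrowest. It had 226 and 214 CPM in si3m, against 215 and 203 CPM in siNT. The second si3m library lay just under the first siNT library. The log2 fold change was 0.08 (SE 0.065) and did not pass (edgeR adjusted p = 0.423), with a 95% interval from -0.06 to 0.21, or 0.958-fold to 1.16-fold. Total count scaling moved it to -0.0043 (adjusted p = 0.974).

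**Figure D3:**
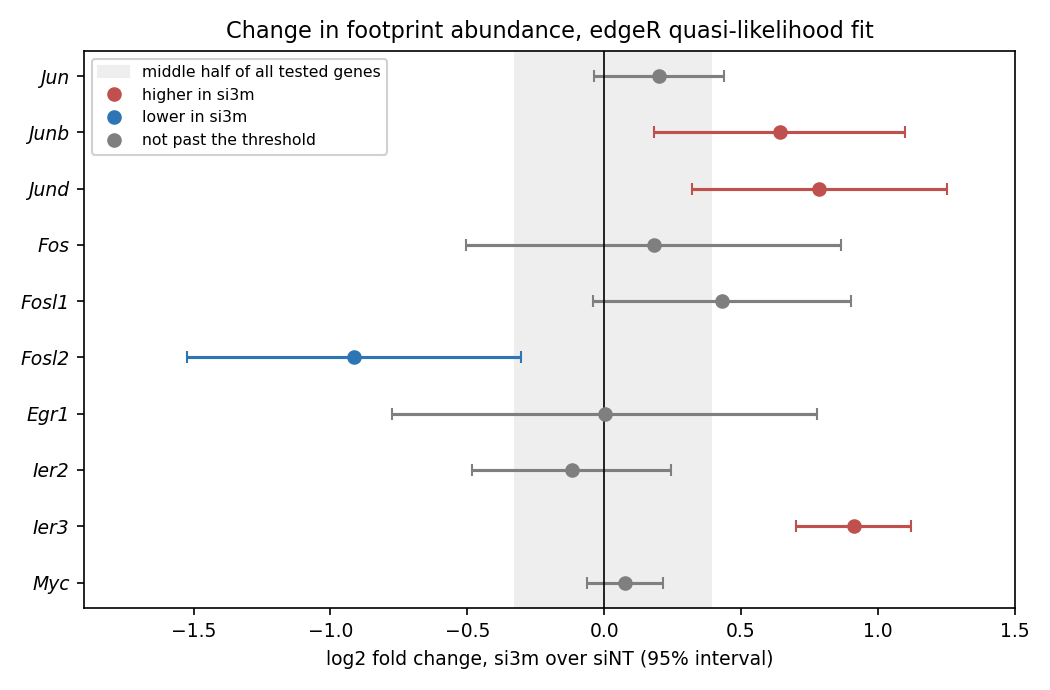
log2 fold change of si3m over siNT (horizontal axis) with 95% intervals from the edgeR fit, by gene, with the range between the quartiles of all tested genes, -0.33 to 0.39, shaded. Intervals of Junb, Jund and Ier3 lie above 0 and that of Fosl2 below 0, while those of the other genes include 0.

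**Figure D4:**
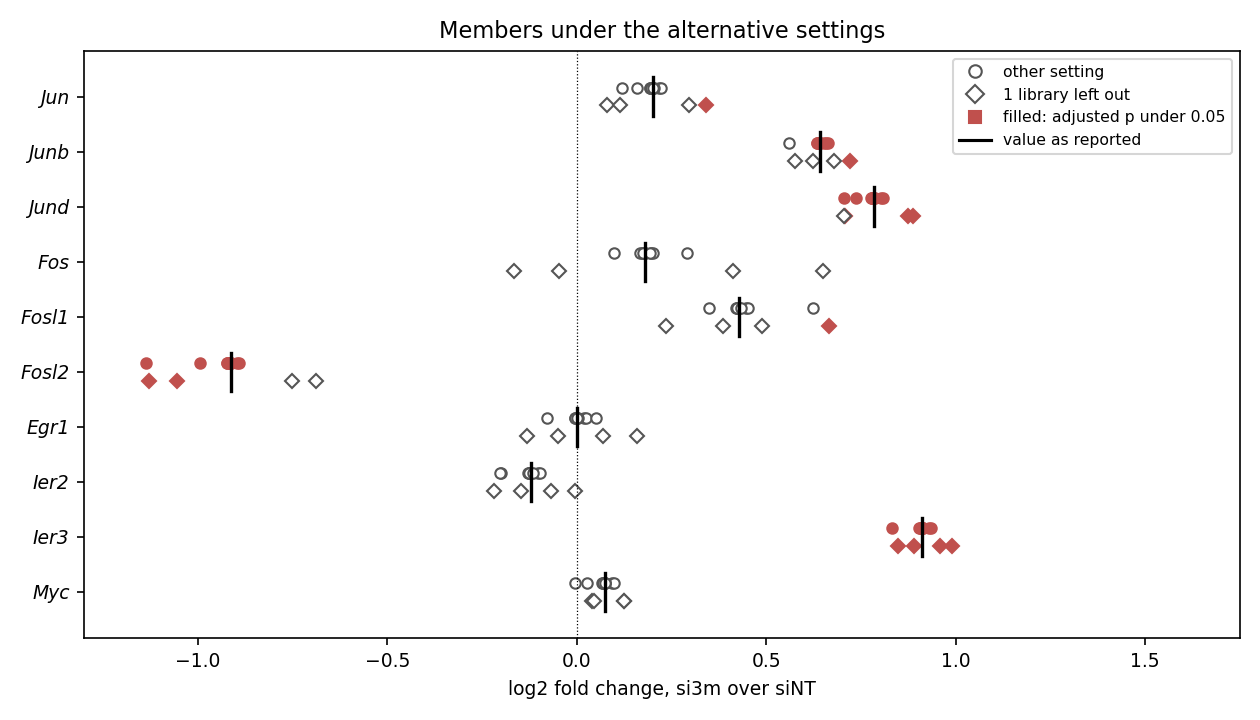
log2 fold change of si3m over siNT (horizontal axis) of each gene under the alternative settings, as circles, or with 1 library left out, as diamonds, filled where the adjusted p was under 0.05. Ier3 is filled throughout, while Junb, Jund and Fosl2 have open symbols for some settings and Jun and Fosl1 each have 1 filled diamond.

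Promoter sequences (250 bases before to 50 after the annotated start) were available for 6 of the 10 genes in a RefSeq table of the rat assembly GRCr8. Those of the 3 called genes in that table are printed with that of Egr1, whose control by serum response factor is the textbook case of an immediate early promoter. Capitals mark matches, on either strand, to the AP-1 site TGACTCA, the cAMP response element TGACGTCA, which AP-1 dimers also bind, the E-box CACGTG bound by MYC, the EGR site GCGGGGGCG and the CArG box of serum response factor. None of these overlaps another here.
Junb, GRCr8 chr19:40080876-40081175, plus strand: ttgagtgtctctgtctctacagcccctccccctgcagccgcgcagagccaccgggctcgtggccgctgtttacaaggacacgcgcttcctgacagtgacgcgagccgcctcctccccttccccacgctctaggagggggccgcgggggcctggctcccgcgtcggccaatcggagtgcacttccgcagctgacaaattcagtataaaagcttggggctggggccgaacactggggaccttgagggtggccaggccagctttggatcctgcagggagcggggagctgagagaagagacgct
Jund, GRCr8 chr16:18769722-18770021, minus strand: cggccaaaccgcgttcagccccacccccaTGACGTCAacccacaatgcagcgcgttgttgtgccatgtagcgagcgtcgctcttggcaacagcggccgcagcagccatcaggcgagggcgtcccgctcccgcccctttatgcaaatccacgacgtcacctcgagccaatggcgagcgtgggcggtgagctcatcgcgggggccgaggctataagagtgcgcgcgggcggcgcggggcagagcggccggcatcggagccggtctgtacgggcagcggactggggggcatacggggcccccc
Fosl2, GRCr8 chr6:30039220-30039519, minus strand: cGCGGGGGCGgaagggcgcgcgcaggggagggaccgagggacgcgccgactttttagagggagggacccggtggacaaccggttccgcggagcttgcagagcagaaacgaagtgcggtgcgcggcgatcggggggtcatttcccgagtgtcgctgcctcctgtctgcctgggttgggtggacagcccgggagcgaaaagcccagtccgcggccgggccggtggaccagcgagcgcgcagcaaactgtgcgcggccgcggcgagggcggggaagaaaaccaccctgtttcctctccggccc
Egr1, GRCr8 chr18:26736828-26737127, plus strand: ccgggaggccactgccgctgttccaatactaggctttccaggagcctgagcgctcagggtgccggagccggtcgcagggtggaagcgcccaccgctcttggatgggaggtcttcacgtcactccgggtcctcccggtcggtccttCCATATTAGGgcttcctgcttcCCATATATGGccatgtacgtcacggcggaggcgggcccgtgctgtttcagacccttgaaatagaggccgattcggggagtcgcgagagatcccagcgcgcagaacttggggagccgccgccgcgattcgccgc

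The cAMP response element began 221 bases before the start of Jund, which rose, and 66 bases before that of Ier2, which did not pass. This motif is in 1.83% of all 33469 promoters of the table. Egr1 held CArG boxes beginning 105 and 83 bases before its start, a motif found in 1.64% of promoters. Fosl2 held the EGR site, found in 2.73%, and no promoter of the 6 held the AP-1 site or the E-box, which 4.63% and 6.42% of promoters hold. The Junb promoter held none of the 5 motifs. The 6 promoters had between 52.7% and 70.7% G and C, against a median of 51.7% over all promoters.

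The other genes of these pathways were read from 8 lists of textbook membership, with 135 of 156 genes tested. Of these, 25 were higher and 27 lower in si3m, against the 14.0% and 13.9% of all tested genes, and the split became 22 higher and 40 lower with total count scaling. The median log2 fold change of the 135 genes was 0.03.

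Other AP-1 factors were mostly lower among those called, 1 of 10 tested rising and 4 falling (median log2 -0.35). The falls were those of the small MAF genes Mafk, Maff and Mafg and of Nfe2l1. Atf2, Atf3, Atf7, Maf and Nfe2l2 did not pass, which with Jdp2 completes the 10 tested. Jdp2, a repressor that pairs with JUN, rose by 1.21 on the log2 scale (SE 0.18, edgeR adjusted p = 1.22e-04), with 42.6 ± 0.340 CPM in si3m and 18.4 ± 0.801 CPM in siNT (SD, n = 2 each). Mafk, a small MAF protein without an activation domain, fell to 27.7 ± 3.23 CPM in si3m, against 53.9 ± 11.4 CPM in siNT (log2 -0.96, SE 0.18). Nfe2l1, a factor that induces proteasome genes, fell by 0.34 on the log2 scale (SE 0.069). Fosb had too few counts to be tested, 14 and 24 in si3m and 2 and 2 in siNT.

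Of 28 other immediate early genes tested, 7 rose and 4 fell (median log2 0.20). Klf4, a zinc finger factor of growth arrest, rose by 0.55 on the log2 scale (SE 0.071, edgeR adjusted p = 3.08e-05). Ctgf, a secreted matrix protein, fell by 0.33 (SE 0.027), and Sgk1, a kinase induced by serum and glucocorticoids, fell by 0.50 (SE 0.068).

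Among the kinases and cofactors that switch these genes on, 6 of 27 tested rose and 3 fell (median log2 0.16). Map2k1, the MEK1 kinase that activates ERK, fell to 189 ± 1.83 CPM in si3m, against 572 ± 6.30 CPM in siNT (SD, n = 2 each). This change passed with a log2 value of -1.60 (SE 0.055, edgeR adjusted p = 7.44e-12). The related Map2k2, named after its value was seen, rose by 0.72 (SE 0.15). Srf, the serum response factor itself, rose to 72.6 ± 1.98 CPM in si3m, against 40.5 ± 1.65 CPM in siNT (log2 0.84, SE 0.13). The number of falls in this list was 8 with total count scaling and 5 with the stricter filter, with fragments and without small RNA rows, and the rises numbered 10 without siNT replicate 1.

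In the MYC, MAX and MLX network 0 of 11 tested genes rose in edgeR's test and 1 fell (median log2 0.03). Rises numbered 0 at an unadjusted p under 0.05 and 0 with DESeq2. Without siNT replicate 1 there was 1 rise. The fall was that of Mnt, a repressor that competes with MYC for MAX (log2 -0.61, SE 0.20, edgeR adjusted p = 0.0336), which did not pass without si3m replicate 1 (0.191), si3m replicate 2 (0.0954) or siNT replicate 2 (0.188), or with thinned counts (0.0635). Max, the partner that MYC needs to bind DNA, had a log2 value of 0.37 (SE 0.21, adjusted p = 0.211), and Mycl one of 1.28 (SE 0.65, adjusted p = 0.163) on at most 30 counts.

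Textbook MYC targets numbered 7 rises and 4 falls among 24 tested (median log2 0.13). Pa2g4, a growth regulator that binds ribosomes, rose by 0.96 on the log2 scale (SE 0.086, edgeR adjusted p = 5.73e-07) and Nme1, a nucleoside diphosphate kinase, by 1.01 (SE 0.11). Npm1, a nucleolar chaperone of ribosome assembly, fell by 0.45 (SE 0.060).

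Textbook AP-1 targets were divided, 4 of 13 tested rising and 4 falling (median log2 0.15). Spp1, the matrix protein osteopontin, fell by 0.83 on the log2 scale (SE 0.061, edgeR adjusted p = 5.66e-08) and Hmox1, which degrades heme, by 0.70 (SE 0.076). The matrix metalloproteinase and urokinase genes of the list (Mmp1, Mmp3, Mmp9, Mmp10, Mmp13 and Plau) had at most 8 counts in any library and were not tested.

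Factors that act on messenger RNAs with AU-rich elements, such as those of Fos and Myc, had 1 rise and 4 falls among 12 tested (median log2 -0.15). Most take part in decay, but the list also holds Elavl1, which stabilises such messenger RNAs, and the translational silencers Tia1 and Tial1, and none of these 3 passed. Xrn1, the exonuclease that digests decapped messenger RNA, fell by 0.56 on the log2 scale (SE 0.093, edgeR adjusted p = 3.12e-04) and Cnot7, a deadenylase, fell by 0.56 (SE 0.11), while Zfp36l2, which binds AU-rich elements, rose by 0.28 (SE 0.063). The falls numbered 2 without si3m replicate 1 and 2 with thinned counts. Enzymes that mark JUN, FOS or MYC protein for turnover had 0 rises and 3 falls among 12 tested in edgeR's test (median log2 -0.14), with 0 rises at an unadjusted p under 0.05, 0 with DESeq2 and 1 without siNT replicate 1. Huwe1, a ubiquitin ligase that acts on MYC, fell by 0.29 (SE 0.054, adjusted p = 6.74e-04), Rfwd2, the COP1 ligase that acts on JUN, fell by 0.22 (SE 0.063), and Gsk3b, a kinase that primes MYC and JUN for ubiquitination, fell by 0.19 (SE 0.062). Gsk3b did not pass under 7 alternatives, and Rfwd2 did not without siNT replicate 1 (0.122) or si3m replicate 2 (0.121).

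**Figure D5:**
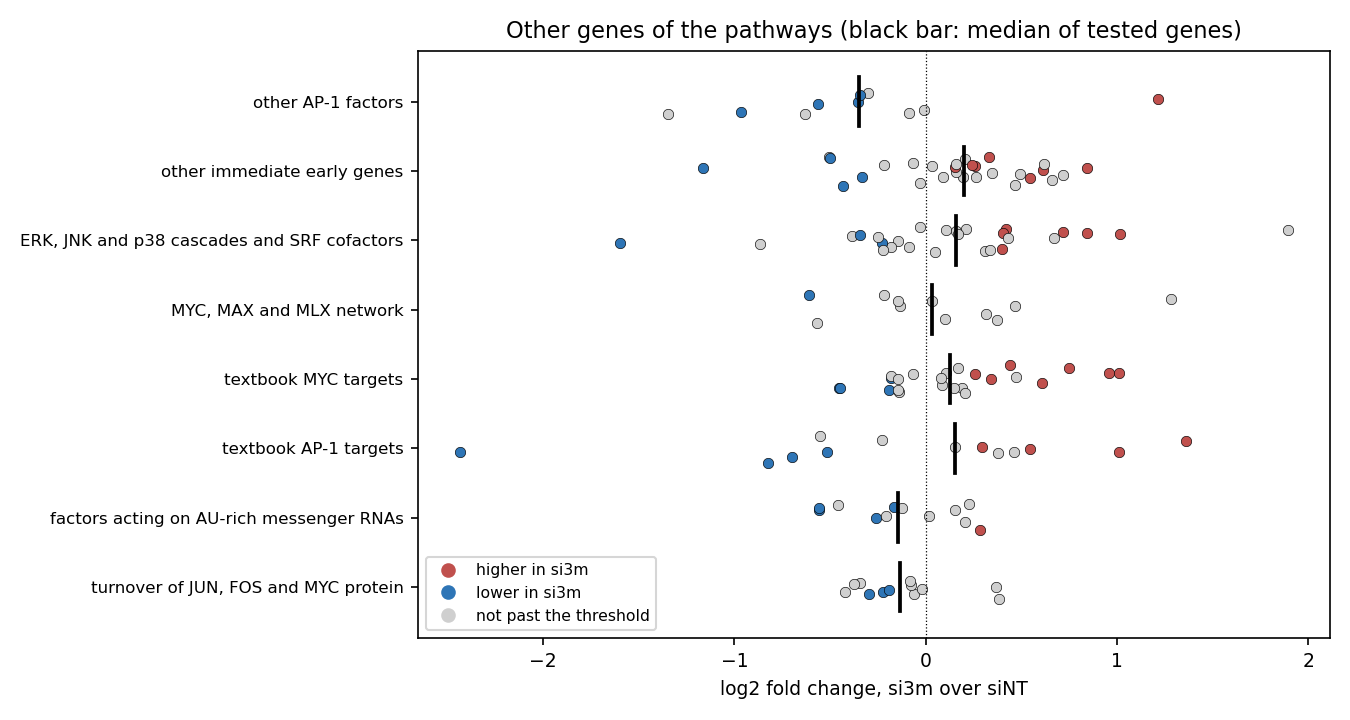
log2 fold change of si3m over siNT (horizontal axis) of each tested gene in the 8 pathway lists, coloured by call, with a black bar at the median of the list. Most points lie within 1 unit of 0, and Map2k1 at -1.60 and Jdp2 at 1.21 are among those outside that range. The outermost points are Mt2A at -2.44, called lower on at most 20 counts in a library, and Map2k6 at 1.89, which did not pass.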

How the data were processed

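Ribosome footprints were counted in 4 libraries of rat myocardial cells, 2 si3m and 2 siNT. The authors' deposited files hold raw counts per gene symbol, and the build rn6, Trimmomatic 0.40, HISAT2 2.2.1 and featureCounts appear in the submitters' processing notes, as do DESeq2 and limma. Annotation, strand setting and multi-mapped reads: not given in the sources used here. In the GRCr8 gene table no annotated gene overlapped any of the 10 genes. RNA-seq was not analysed here, so values are footprint abundance and not translational efficiency. Nothing in the labels says that the samples of a group were separate cultures, so the p-values reflect the spread between libraries alone, and that spread may be technical.

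All counts entered one fit with edgeR 4.0.16 in R 4.3.3: TMM scaling after filterByExpr (minimum count 10), then glmQLFit and a two-sided glmQLFTest. Adjustment was by Benjamini-Hochberg over 12672 genes, and the threshold was 0.05. CPM is the count per 1000000 counts of TMM-scaled library size, unless called a share of the library total, and TMM centres the fold changes, so changes are relative to other footprints. The SE is the absolute log2 fold change divided by the square root of the F statistic of the same fit. Intervals of fold changes are 95% intervals built from this SE and the t distribution. Fragments are deposited counts divided by 2, an assumption that was not tested, and every count of the 10 genes was even. Replicates, over rows where a pair held 20 or more fragments, differed by a median chi-square of 1.48 times counting noise in si3m and 1.40 times in siNT, so both pairs were kept as 2 samples. Levels were not compared between genes, as the files give no transcript lengths. The 10 genes and the lists were chosen with earlier results of these data known. Genes named from a list are its 3 with the smallest p, unless stated, and 2 results named by this rule are not reported here. The alias Miz1 was dropped from the MYC network list, since it matched another gene.

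On counts simulated for this comparison (12406 genes in the fit), the test recovered 39.1% of 69 genes with a 1.5-fold change, 79.0% of 62 with a 2-fold change and 97.0% of 67 with a 4-fold change. The simulation changed far fewer genes than the 3528 called in the data and gave every gene the common dispersion of 0.0109. Its counts also lacked the excess of even numbers, so these rates may not hold for the real counts. The alternative settings were DESeq2 1.42.0, scaling by upper quartile or by total count, no filter on low counts, a filter of 50 counts in 2 libraries, fragments, counts thinned to the smallest library, robust quasi-likelihood, small RNA rows left out, the replicate block and leaving out each library.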

Additional observations from a re-analysis of the deposited data

How the results depend on the processing

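Each of the 14 alternative settings was run for the 10 genes, except that Egr1 had too few counts for the stricter filter. Of 195 values of the main results under the alternatives, 174 kept their direction and their side of the threshold, stayed within the spread between replicates or, for counts, stayed within 1.5 times. The number of the 10 genes called ranged from 2 to 5 when 1 library was left out, and their median log2 fold change from 0.14 to 0.41. The same omissions gave log2 ranges of -0.17 to 0.65 for Fos, 0.24 to 0.67 for Fosl1, -1.13 to -0.69 for Fosl2, 0.0803 to 0.34 for Jun, 0.58 to 0.72 for Junb, 0.71 to 0.89 for Jund and -0.13 to 0.16 for Egr1. Junb was not called with DESeq2 (log2 0.64, adjusted p = 0.0607) or total count scaling (log2 0.56, adjusted p = 0.0643). Values near 0 changed sign: Egr1 stood at -0.0044 with DESeq2, -0.0782 with total count scaling and -0.0043 without small RNA rows, and Myc at -0.0043 with total count scaling. The cause was not tested.

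The number of all genes called ranged from 2537 to 3739 with 1 library left out and from 3135 to 3779 over the other settings. Of the pathway counts not given above, the falls among MYC targets numbered 2 without si3m replicate 2, against 4, those among turnover enzymes 1 without si3m replicate 2, against 3, and those in the MYC network 0 without either si3m replicate, without siNT replicate 2 or with thinned counts, against 1. No pairing by replicate number was seen (r = -0.023 across genes between the deviations of replicate 1 in si3m and in siNT). Counting noise in single libraries pulls such an r towards 0, so it cannot decide whether the samples were paired. With the replicate block, 3694 genes were called, the same number of the 10 genes (4) and 55 genes of the pathway lists, with a median of 0.20 over the 10 genes. Egr1, Fos and Fosl2, which had the fewest counts of the 10 genes, also had the largest standard errors among them.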

Other observations

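Further members of the pathway lists, all named after their values were seen, passed edgeR's test. Nr4a1, an orphan nuclear receptor of the early response, fell by 1.17 on the log2 scale, with an SE of 0.24 (adjusted p = 0.00164), and Btg2, an antiproliferative early gene, fell by 0.43 (SE 0.090). Ier5, a relative of Ier2, rose by 0.61 (SE 0.10, adjusted p = 2.76e-04), and Dusp1, a phosphatase that switches off MAP kinases, rose by 0.33 (SE 0.098). The small MAF genes Maff and Mafg fell by 0.56 (SE 0.12) and 0.35 (SE 0.11) on the log2 scale, so all 3 small MAF genes, with Mafk, were lower in si3m. Il6, an inflammatory cytokine and AP-1 target, rose by 1.36 (SE 0.24, adjusted p = 5.50e-04), and Hras, which acts upstream of RAF, rose by 1.01 (SE 0.21).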
